A study of Rattus norvegicus with 18 samples.

Results

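The sORF7 response and the sORF8 response of neonatal rat ventricular cardiomyocytes were set against each other, gene by gene, as a difference of differences. The 12 libraries concerned, of 18 in the series, were chosen by their titles: 3 of cells infected with an adenovirus carrying the short open reading frame sORF7, 3 with the control virus of sORF7, 3 with sORF8 and 3 with the control virus of sORF8. The cells were primary muscle cells of the ventricle, isolated from Sprague-Dawley rats on postnatal day 2 after a plating step that removes adhering non-muscle cells. All 4 groups, controls included, had received 20 µM phenylephrine for 24 h, so no group was free of this agonist of alpha-adrenergic receptors, which drives hypertrophic growth. Neither the sequence or peptide of an sORF nor the cargo of a control virus is given in the labels, and the transgenes themselves were not checked here. Whether a group's 3 libraries were made from different cultures is not stated in the labels, so a p-value here reflects the scatter of 3 libraries, possibly technical. Which virus set a library belongs to and which of the 2 experiments it came from cannot be told apart.

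Cultured neonatal cardiomyocytes exposed to phenylephrine enlarge, add sarcomeres and raise fetal genes such as those of the natriuretic peptides. Growing cells also need lipid. Sterol and unsaturated fatty acid synthesis are driven by SREBP transcription factors, which are held in the endoplasmic reticulum by INSIG proteins until sterol runs low. Oxidant defence is driven largely by NRF2, a factor that pairs with small MAF proteins on antioxidant response elements and is held back by KEAP1. The sarcomere is built of myosin thick filaments, actin thin filaments anchored at Z-discs, and titin, which spans from the Z-disc to the M-band.

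Of 20 genes of sterol synthesis 11 fell with sORF7 and rose with sORF8. So did 3 of 18 sterol uptake, efflux and regulation genes, 2 of 17 fatty acid synthesis and desaturation genes and 12 of 64 sarcomere genes. Of all 14870 genes tested, 76 did. In turn, 6 of 74 oxidant-defence genes rose with sORF7 and fell with sORF8, against 54 of all genes tested. Fatty acid uptake and oxidation had 0 of 32 such movers in either direction. Triglyceride and lipid droplet genes had 1 of 20, which rose with sORF7. The response to sORF7 is the log2 ratio of the sORF7 libraries to their own controls, the response to sORF8 is the same ratio for sORF8, and the difference is the first minus the second. The table lists 19880 genes, and the 14870 with enough counts were tested by the edgeR quasi-likelihood test, with a call at a Benjamini-Hochberg adjusted p under 0.05. The difference was called for 1148 genes (7.72% of those tested), of which 565 were positive (3.8%) and 583 negative (3.92%). Each list count of the difference below is to be read beside these shares. Upper-quartile scaling gave 458 positive and 714 negative calls, and limma on log2(FPKM + 1), which changes the unit, the scaling and the test together, gave 792 and 376. At 2-fold or more, 50 of the called genes were positive and 18 negative.

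The response to sORF7 held 1156 called genes (7.77%), 612 higher (4.12%) and 544 lower (3.66%). The response to sORF8 held 558 (3.75%), 302 higher (2.03%) and 256 lower (1.72%). These responses share no library. They had 159 called genes in common, 13.8% of the sORF7 calls and 28.5% of the sORF8 calls. Of the 159 genes, 130 moved in opposite directions (0.874% of all genes tested, 11.2% of the sORF7 calls and 23.3% of the sORF8 calls) and 29 in the same direction (0.195%, 2.51% and 5.2%). Among the 130, 54 rose with sORF7 and fell with sORF8, and 76 fell with sORF7 and rose with sORF8. In each of the 130 the sORF and control libraries did not overlap in either experiment, and the same held for 28 of the 29. These genes had already been chosen as called in both responses, so the lack of overlap is no separate support. The share of all genes tested without such overlap is not given here. Opposite movers named below for their size, and same-direction movers so named, also had to show no overlap. The counts of calls and movers depend on the libraries used, and a fit without a library also has a smaller group. The part of the smaller group was not tested. The sORF7 calls were 681 to 1106 with a library left out, lowest without sORF7 library 1. The sORF8 calls fell to 333 or 264 without sORF8 library 1 or 2, and to 361, 331 or 304 without sORF8 control library 1, 2 or 3. The opposite movers fell to 86 without sORF8 library 2.

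**Figure D1:**
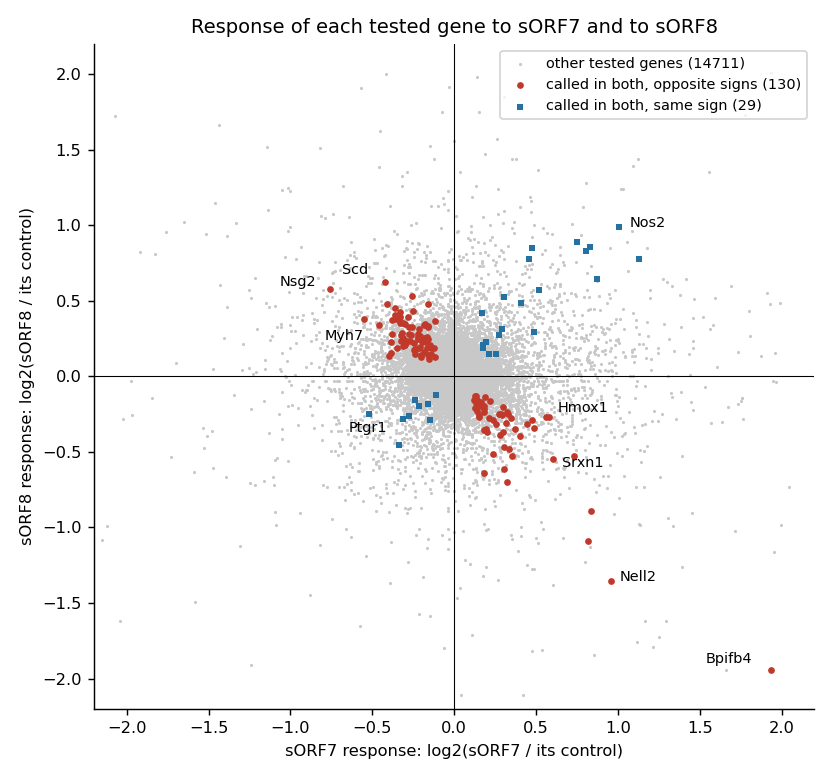
Response of each of 14870 tested genes to sORF7 (horizontal axis) and to sORF8 (vertical axis), both as log2 fold changes of 3 sORF libraries against 3 control libraries. The 130 genes called in both responses with opposite signs (red) lie in the upper left and lower right, the 29 with the same sign (blue) in the upper right and lower left, and 87 genes outside 2.2 log2 units, none of them called in both, are not drawn.

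The control groups stood at different levels before any sORF was considered. Between the sORF7 control and the sORF8 control, 5603 genes were called (37.7%), 2842 higher in the sORF7 control (19.1%) and 2761 lower (18.6%). On a principal component analysis of the 12 libraries over 12604 genes, the first component held 51.3% of the variance and separated the 6 libraries of the sORF7 experiment (-22.52 to -13.86) from the 6 of the sORF8 experiment (13.61 to 22.04). Depth was also split by experiment, at 17299568 to 17652197 counts per library for sORF7 and its control and 15697177 to 16283938 for sORF8 and its control. The control difference shares its control libraries with both responses, so its values stand beside theirs below without further comparison. The part of the starting level in a response was not tested.

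The 20 genes of sterol synthesis formed the most uniform list, with 17 called lower in the difference and 0 higher, against 3.92% and 3.8% over all genes. With sORF7, 15 of the 20 fell and 0 rose, with a list median of -0.21 log2 units, and with sORF8 13 rose and 0 fell, with a median of 0.27. Each of these counts of 0 by edgeR was also 0 at an unadjusted p under 0.05 and by DESeq2 and limma. Opposite movers numbered 11 in the list: Acat2, Hmgcs1, Idi1, Fdps, Fdft1, Sqle, Cyp51, Nsdhl, Hsd17b7, Sc5d and Dhcr7, which span the pathway from acetyl-CoA to cholesterol. The median difference was -0.52, against -0.001 over all genes tested. In the sORF7 control 19 of the 20 were higher than in the sORF8 control, with a median of 0.48.

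Fdps, the farnesyl diphosphate synthase (gene 83791, chr2:188403595-188413219, minus strand, Rnor_6.0), was counted at 664, 687 and 704 normalised CPM (CPM computed on TMM-scaled library sizes) in the sORF7 controls and 544, 537 and 551 with sORF7. It stood at 394, 382 and 400.0 in the sORF8 controls and 541, 499 and 541 with sORF8. Every sORF7 library lay below its controls and every sORF8 library above its own, while the sORF7 and sORF8 libraries overlapped each other. The response was -0.33 ± 0.04 (SE) to sORF7 and 0.43 ± 0.04 to sORF8, and the difference was -0.76 ± 0.06, with an adjusted p of 5.18e-07.

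Hmgcs1, the HMG-CoA synthase of the early pathway (gene 29637, chr2:52427351-52445082, plus strand), fell from 660.4, 601 and 626 normalised CPM in its controls to 503, 513 and 498 with sORF7. It rose from 447, 473 and 461 to 576, 541 and 573 with sORF8. The groups did not overlap within either experiment, and the difference was -0.61 ± 0.05 (adjusted p 5.18e-07). Hsd17b7, a ketosteroid reductase of the late pathway, had the largest difference of the list at -0.93 ± 0.09, from 36.6 ± 1.23 to 25.0 ± 1.55 normalised CPM with sORF7 and from 23.6 ± 1.81 to 30.6 ± 1.43 with sORF8 (mean ± SD, n = 3 each). Fdft1, the squalene synthase, had responses of -0.27 and 0.28. The 3 members whose difference was not called, Mvk, Pmvk and Ebp, had differences of -0.26, -0.24 and -0.18.

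Among the 18 genes of sterol uptake, efflux and regulation, 4 were called lower in the difference and 0 higher, with a median of -0.19. Of these, 3 were opposite movers, Insig1 and Srebf2 among them. Insig1, which retains SREBP in the endoplasmic reticulum (gene 64194, chr4:328169-350515), was counted at 229, 216 and 233 normalised CPM in the sORF7 controls and 195, 202 and 199 with sORF7. It was counted at 171, 170.5 and 169 in the sORF8 controls and 212, 196 and 202 with sORF8. The groups did not overlap within an experiment, while the sORF7 and sORF8 libraries overlapped each other, and the difference was -0.44 ± 0.05 (adjusted p 2.6e-05). Srebf2, which encodes the SREBP of sterol synthesis, had responses of -0.23 and 0.18. Srebf1, which encodes the SREBP of fatty acid synthesis, did not pass the test of the difference (-0.21 ± 0.07, adjusted p 0.0962).

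In fatty acid synthesis and desaturation, 8 of 17 tested members were called lower in the difference and 2 higher, with a median of -0.37. The 2 higher were Me1 (malic enzyme, 0.19) and Mid1ip1 (0.29). The desaturases stood out in size. Scd, a stearoyl-CoA desaturase that makes oleate (gene 246074, chr1:264159966-264173061, minus strand), was counted at 94.4, 86.2 and 87.8 normalised CPM in the sORF7 controls and 62.0, 66.7 and 71.7 with sORF7. With the sORF8 control it stood at 50.9, 51.4 and 50.9 and with sORF8 at 73.1, 78.3 and 85.1. Each sORF7 library was below, and each sORF8 library above, all of its controls, and the difference was -1.05 ± 0.09 (adjusted p 4.91e-07). Its neighbour and close paralog Scd2 had responses of -0.36 and 0.38 and a difference of -0.74 ± 0.05 (adjusted p 3.45e-08); reads may be divided between the pair, so the share of each is uncertain. Fads1, the delta-5 desaturase of polyunsaturated fatty acids (gene 84575, chr1:226234034-226249118, plus strand), rose with sORF8 from 68.7, 66.0 and 75.4 to 98.0, 105 and 104 normalised CPM. With sORF7 it went from 141, 149 and 141 to 130.3, 134 and 137, which was not called (-0.10 ± 0.05, adjusted p 0.266). Fads1 was therefore called in the difference (-0.65) without being an opposite mover.

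Hmgcs1 and Fdps were opposite movers, and Fads1 was called with sORF8 and not with sORF7. Promoter windows of these 3 genes are printed as a description, without a test of any regulator. Each is the 250 bases before the RefSeq gene start on build GRCr8, read 5′ to 3′ on the gene's strand, with capitals for a CCAAT box (bound by NF-Y) on either strand and, in Fads1, for the sterol response element core CACNCCAC.
Fads1 (chr1:216252442-216252691, plus strand): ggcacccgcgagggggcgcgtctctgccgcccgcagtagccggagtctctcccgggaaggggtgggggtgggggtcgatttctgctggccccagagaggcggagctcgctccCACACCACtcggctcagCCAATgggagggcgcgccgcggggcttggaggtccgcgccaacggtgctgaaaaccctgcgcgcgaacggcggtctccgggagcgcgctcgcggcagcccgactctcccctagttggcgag
Hmgcs1 (chr2:53382054-53382303, plus strand): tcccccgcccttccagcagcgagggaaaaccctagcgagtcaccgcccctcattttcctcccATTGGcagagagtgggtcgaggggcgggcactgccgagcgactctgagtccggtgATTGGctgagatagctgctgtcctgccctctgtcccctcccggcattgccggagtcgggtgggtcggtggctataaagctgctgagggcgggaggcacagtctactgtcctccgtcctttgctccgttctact
Fdps (chr2:176804817-176805066, minus strand): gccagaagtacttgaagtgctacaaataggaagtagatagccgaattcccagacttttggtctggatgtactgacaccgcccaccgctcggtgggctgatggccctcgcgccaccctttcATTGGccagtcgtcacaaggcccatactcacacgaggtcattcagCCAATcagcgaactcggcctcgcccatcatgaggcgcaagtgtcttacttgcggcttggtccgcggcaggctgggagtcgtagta
The Fads1 window holds the core 138 to 131 bases before the start and a CCAAT box at 121 to 117, while Hmgcs1 and Fdps hold 2 CCAAT boxes each, at 188 to 184 and 133 to 129 bases and at 130 to 126 and 85 to 81 bases. Among genes with a RefSeq window, CCAAT was found on either strand in 12 of 15 sterol synthesis genes (80.0%) and 9 of 14 genes of fatty acid synthesis (64.3%), against 4048 of 11467 tested genes (35.3%). The core CACNCCAC was found in 2 of the 15 (13.3%) and 3 of the 14 (21.4%), against 5.32% of tested genes. Opposite movers had this core in both directions, 5 of 44 that rose with sORF7 (11.4%) and 8 of 61 that fell (13.1%). The 26 of 61 opposite movers that fell with sORF7 and had CCAAT made up 42.6%. These are letter matches, described without a test.

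Fatty acid uptake and oxidation had a median difference of -0.06. Of 32 tested members, 2 were called higher in the difference and 3 lower (15.6%, against 7.72% over all genes). The 3 lower became 1 without sORF7 library 1 or 2, sORF7 control library 2, sORF8 library 2 or 3, or sORF8 control library 1 or 3. The control levels of this list differed widely, since 24 of the 32 were higher in the sORF7 control and 1 lower. Fabp3, the heart fatty acid binding protein, rose with sORF8 from 211 ± 5.27 to 261 ± 2.74 normalised CPM and stood at 400.4 ± 29.9 and 389.7 ± 13.9 in the sORF7 experiment (mean ± SD, n = 3 each), a called difference of -0.35. Hadhb, a subunit of the mitochondrial trifunctional protein, had a difference of 0.17. Slc27a1, a fatty acid transporter, had a difference of 0.45 (adjusted p 0.0203), which was not called without sORF7 library 2, sORF8 library 1 or sORF8 control library 2 (adjusted p 0.0527 to 0.0615).

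Of 20 tested triglyceride and lipid droplet genes, 2 were called higher in the difference and 1 lower, against 3.8% and 3.92% over all genes. The median was 0.06. DESeq2 called 2 higher and 2 lower, and limma 4 and 1. With so few calls and so small a median, no sign is drawn for this list. Gpat3, which adds the first acyl chain to glycerol 3-phosphate, was the only opposite mover of the list. It was counted at 15.7, 13.3 and 13.8 normalised CPM in the sORF7 controls and 17.0, 18.5 and 18.4 with sORF7, and at 31.9, 28.7 and 29.2 in the sORF8 controls and 21.6, 22.0 and 20.7 with sORF8. The sORF7 libraries were thus above, and the sORF8 libraries below, their controls, a difference of 0.81 ± 0.13 (adjusted p 0.000538). Dgat2, which adds the last acyl chain, rose with sORF7 from 11.5 ± 1.42 to 17.5 ± 1.16 (mean ± SD, n = 3 each), and its sORF8 response of -0.28 was not called (adjusted p 0.233). G0s2, an inhibitor of the lipase ATGL, had the opposite sign, with a difference of -0.64. Over the 5 lipid lists, 39 of 107 tested members were called in the difference (36.4%, against 7.72% over all genes), 6 higher and 33 lower. Opposite movers numbered 17.

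**Figure D2:**
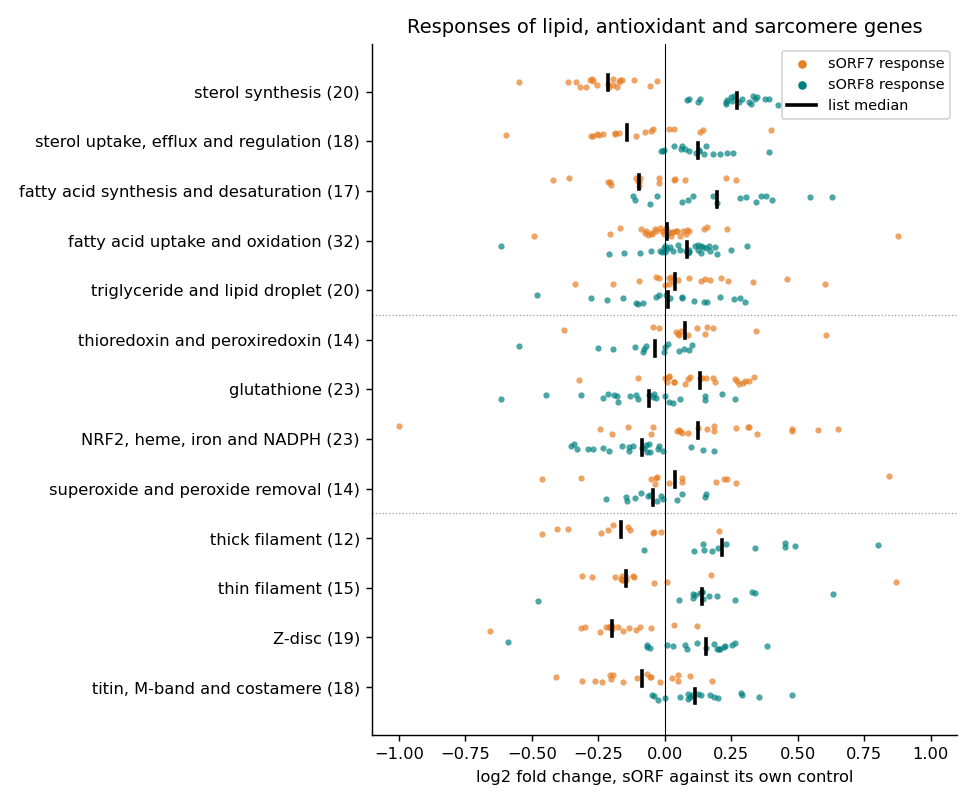
Responses of the tested members of 5 lipid, 4 antioxidant and 4 sarcomere lists to sORF7 (orange) and sORF8 (teal), as log2 fold changes against the group's own control, with list medians as black bars and the number tested in brackets. The sterol synthesis medians lie at -0.21 and 0.27, while those of triglyceride and lipid droplet genes lie at 0.04 and 0.01.

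Oxidant-defence genes rose with sORF7 and fell with sORF8 where they were called in both. Over the 4 antioxidant lists, 22 of 74 tested members were called in the difference (29.7%, against 7.72% over all genes), 18 higher and 4 lower. Opposite movers numbered 6, all higher with sORF7: Srxn1, Txnrd1, Gstp1, Hmox1, Sqstm1 and Mafg. With sORF7, 20 members rose and 4 fell, and with sORF8 0 rose and 10 fell. The count of 0 was 5 at an unadjusted p under 0.05 by edgeR, 0 by DESeq2 and 1 by limma. In the sORF7 control 13 of the 74 were higher than in the sORF8 control and 30 lower.

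In the thioredoxin and peroxiredoxin list, 4 of 14 members were called higher in the difference and 1 lower, with a median of 0.11. The 4 became 2 without sORF7 library 1 or 2, sORF7 control library 2, sORF8 library 1 or 2, or sORF8 control library 1 or 2. Srxn1, the sulfiredoxin that restores overoxidised peroxiredoxins (gene 296271, chr3:147607481-147614410, plus strand), was counted at 20.2, 19.4 and 19.5 normalised CPM in the sORF7 controls and 32.2, 29.4 and 28.4 with sORF7. It was counted at 86.8, 85.4 and 87.9 in the sORF8 controls and 56.9, 60.6 and 60.1 with sORF8. Both sORF groups lay between the controls, which themselves stood -2.14 log2 units apart (sORF7 control minus sORF8 control). The responses were 0.61 ± 0.07 and -0.55 ± 0.06, and the difference 1.16 ± 0.09 had an adjusted p of 2.04e-07. Txnrd1, the cytosolic thioredoxin reductase, went from 163, 155 and 156 to 176, 172 and 178 with sORF7 and from 307, 315 and 332 to 267, 265 and 268 with sORF8, again without overlap within an experiment, a difference of 0.40 ± 0.05 (adjusted p 3.52e-05). Txnip, which binds and inhibits thioredoxin, was the member of opposite sign: it fell with sORF7 (-0.38 ± 0.04) and its sORF8 response was 0.01 ± 0.04 (adjusted p 0.934). Txn1 and Prdx6, thioredoxin and a peroxiredoxin, were the other members called higher, with differences of 0.36 and 0.20.

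Of 23 glutathione genes, 6 were called higher in the difference and 1 lower, with a median of 0.18. Gstp1, a glutathione transferase (gene 24426, chr1:219262166-219294966), was counted at 99.9, 102 and 102 normalised CPM in the sORF7 controls and 122, 128 and 123 with sORF7, and at 263, 258 and 268 in the sORF8 controls and 172, 168 and 176 with sORF8. The 4 groups did not overlap one another, and both sORF groups lay between the controls. Its responses were 0.30 ± 0.04 and -0.62 ± 0.04, its difference was 0.92 ± 0.06, and its adjusted p of 2.51e-08 was the smallest of the 14870 genes. The window before its RefSeq start is printed because it holds an antioxidant response element, TGACNNNGC, in capitals (GRCr8, 5′ to 3′). The deposited table puts this gene on the plus strand with a span of 32801 bases and RefSeq on the minus strand with 3006, so the table's position is uncertain, and the window is RefSeq's.
Gstp1 (chr1:210769706-210769955, minus strand): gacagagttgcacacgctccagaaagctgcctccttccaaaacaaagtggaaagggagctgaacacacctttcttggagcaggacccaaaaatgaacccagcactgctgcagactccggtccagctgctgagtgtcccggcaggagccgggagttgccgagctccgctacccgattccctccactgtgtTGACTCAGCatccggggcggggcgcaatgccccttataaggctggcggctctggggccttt
The element lies 61 to 53 bases before the start and overlaps a match to the AP-1 site TGAGTCA on the other strand at 61 to 55. TGACNNNGC was found on either strand in 11 of the 44 opposite movers that rose with sORF7 and had a window (25.0%), against 12.2% of tested genes, and in 2 of 18 genes of the NRF2 list (11.1%). It was also found in 4 of 15 sterol synthesis genes (26.7%), 3 of 13 sterol uptake genes (23.1%) and 3 of 14 fatty acid synthesis genes (21.4%). The glutathione list had it in 2 of 18 genes (11.1%) and the thioredoxin list in 1 of 11 (9.09%). Opposite movers that fell with sORF7 had it in 9 of 61 (14.8%). Gclc, the catalytic subunit of the enzyme that starts glutathione synthesis, rose with sORF7 from 90.8 ± 2.52 to 110.2 ± 3.66 normalised CPM (mean ± SD, n = 3 each), with a sORF8 response of -0.11 (adjusted p 0.186) and a difference of 0.39. Gsr, Chac1, Gstm1 and Mgst1 were also called higher, at 0.31, 0.33, 0.48 and 0.55. Gstm2 was called lower at -0.58; Gstm1 and Gstm2 are close paralogs that may share reads, so their opposite signs are uncertain.

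The list of NRF2, heme, iron and NADPH genes had 6 of 23 members called higher in the difference and 1 lower, with a median of 0.265. With sORF7, 8 rose and 1 fell, and with sORF8 0 rose and 5 fell. Hmox1, the heme oxygenase and a classical NRF2 and BACH1 target (gene 24451, chr19:14508634-14515455, plus strand), was counted at 34.8, 34.5 and 33.9 normalised CPM in the sORF7 controls and 56.8, 49.8 and 47.4 with sORF7. It was counted at 67.4, 69.0 and 68.8 in the sORF8 controls and 57.7, 55.6 and 57.0 with sORF8. The lowest sORF7 library was thus above the highest of its controls, the sORF8 libraries were all below theirs, and the difference was 0.85 ± 0.08 (adjusted p 3.23e-06). Sqstm1, the autophagy receptor p62 that also binds KEAP1, rose from 215 ± 20.9 to 299 ± 4.99 with sORF7 and fell from 377 ± 13.4 to 309 ± 5.87 with sORF8 (mean ± SD, n = 3 each). Mafg, a small MAF partner of NRF2, had responses of 0.18 and -0.23. Nqo1, a quinone reductase often used as an NRF2 readout, fell with sORF8 (-0.33 ± 0.06) and had a sORF7 response of -0.05 ± 0.07 (adjusted p 0.717). Its difference of 0.28 ± 0.09 was not called by edgeR (adjusted p 0.0752), and limma on log2(FPKM + 1) called it at 0.295 (adjusted p 0.0347). NRF2 and KEAP1 transcripts, Nfe2l2 and Keap1, had differences of 0.17 and 0.14 that were not called. Tfrc, the transferrin receptor, was the member called lower (-0.30).

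Genes of superoxide and peroxide removal were split, with 2 of 14 members called higher in the difference, 1 lower and a median of 0.01. The called share was 21.4%, against 7.72% over all genes. Sod1, the cytosolic superoxide dismutase, and Sesn2, a stress-induced sestrin, rose with sORF7 (0.22 and 0.23), had uncalled sORF8 responses (-0.15 and -0.07) and were called higher in the difference (0.37 and 0.30). Selenop, the secreted selenium carrier, fell with sORF7 from 45.2 ± 4.66 to 32.8 ± 2.89 normalised CPM (mean ± SD, n = 3 each). Its difference of -0.43 (adjusted p 0.0214) was lost without sORF7 library 1 or 3, sORF7 control library 2, sORF8 library 2 or sORF8 control library 2 (adjusted p 0.0513 to 0.0663).

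**Figure D3:**
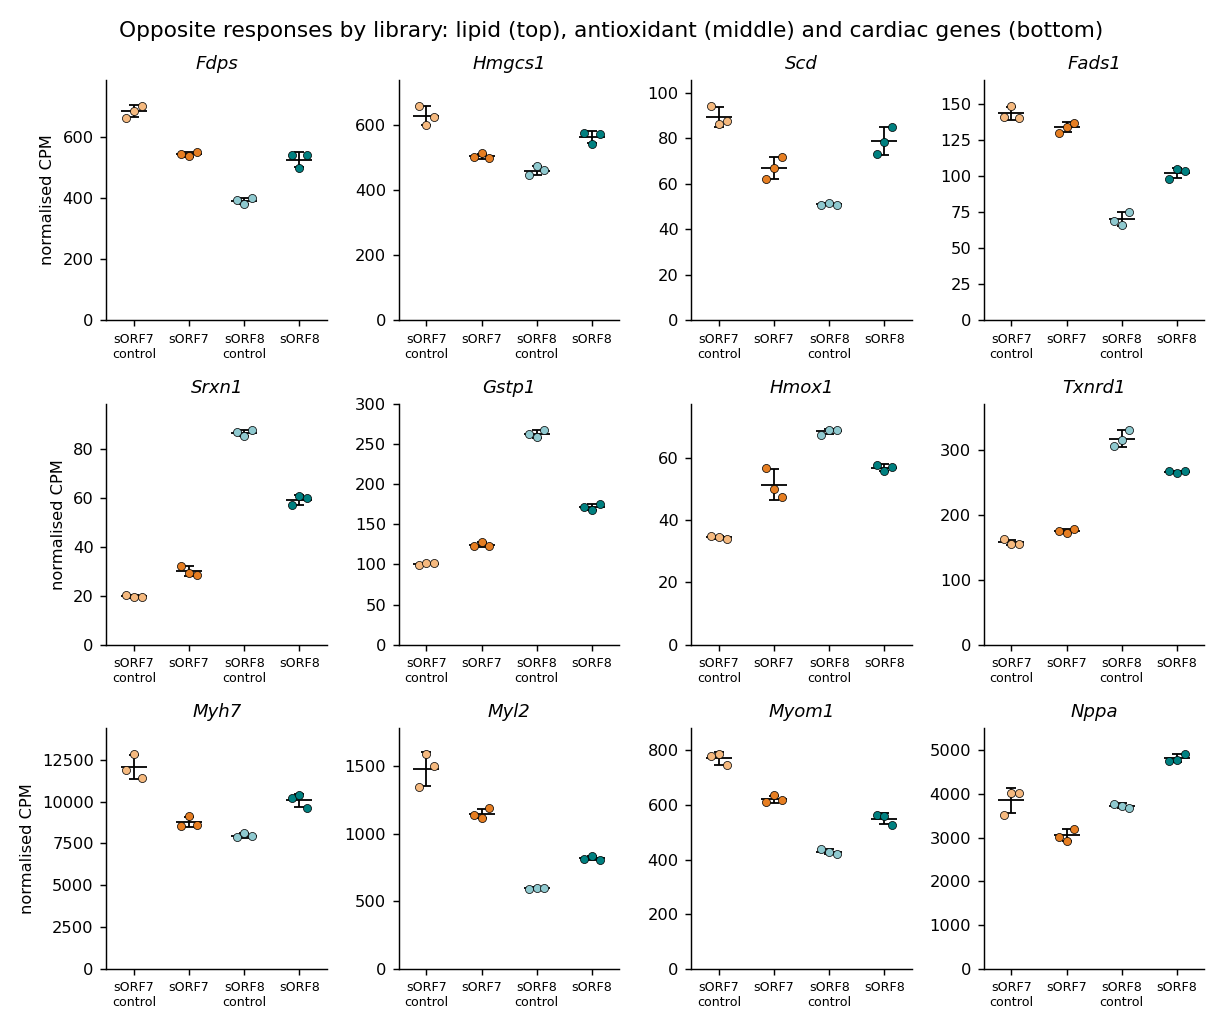
Normalised CPM of 12 genes in each of the 12 libraries, with the mean and SD of 3 libraries as black bars, for lipid genes (top), antioxidant genes (middle) and cardiac genes (bottom). In 11 of the panels the sORF7 and sORF8 libraries move away from their controls in opposite directions, and in Fads1 the change with sORF7 was not called.

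Sarcomere genes had the largest called share of the 3 families, with 37 of 64 tested members lower in the difference (57.8%, against 3.92% over all genes) and 0 higher. With sORF7, 22 fell and 0 rose, and with sORF8 22 rose and 0 fell, with medians of -0.16 and 0.15 over the 64. Of the counts of 0, the sORF7 one was 3 at an unadjusted p under 0.05 by edgeR, 1 by DESeq2 and 0 by limma, and the others were 0 in each. Opposite movers numbered 12. In the sORF7 control 45 of the 64 were higher than in the sORF8 control and 6 lower. The defining markers of cardiomyocytes moved with these genes, but were not separate from them. All 10 had a negative difference, and 8 were called lower (80.0%, against 3.92% over all genes) and 0 higher. Limma on log2(FPKM + 1) called 4 lower. With sORF7 2 of the 10 fell and 0 rose, and with sORF8 4 rose and 0 fell. Actc1, Tnnt2, Tnni3, Tnnc1, Myh6, Myh7 and Actn2 among the markers encode sarcomere proteins, so the markers are no independent measure. Their summed level, over 10 markers and in FPKM (fragment counts scaled by the authors for transcript length and depth), was 26890 to 29250 in the sORF7 controls and 25550 to 25870 with sORF7, and 19480 to 19610 in the sORF8 controls and 22180 to 22340 with sORF8. Actc1 alone ran from 10091 to 15790 FPKM over the 12 libraries. The markers that are not sarcomere genes, Nkx2-5, Pln and Ryr2, ran from 104 to 125, 458 to 610 and 34.4 to 66.9. These ranges over all 12 libraries do not show the direction within an experiment. Fewer cardiomyocytes and less cardiomyocyte RNA per cell cannot be told apart in such bulk samples, and the part of either in the sarcomere result was not tested.

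Of 12 thick filament genes, 9 were called lower in the difference and 0 higher, with a median of -0.345. Myh7, the slow beta myosin heavy chain that hypertrophy raises in rodents (gene 29557, chr15:33602416-33659093), was counted at 11910, 12860 and 11440 normalised CPM in the sORF7 controls and 8549, 9111 and 8619 with sORF7. In the sORF8 experiment it was counted at 7870, 8123 and 7913 in the controls and 10200, 10410 and 9636 with sORF8. The groups did not overlap within an experiment, and the difference was -0.80 ± 0.09 (adjusted p 8.38e-06). Myh6, the fast alpha heavy chain encoded beside Myh7, rose with sORF8 from 2763, 2821 and 2827 to 5000, 5111 and 4548, and with sORF7 went from 6069, 7042 and 6630 to 7247, 7902 and 7590, which was not called (0.20 ± 0.07, adjusted p 0.0972). Myh6 and Myh7 are close paralogs whose reads may be divided between them, so their separate values are uncertain. Myl2, the ventricular regulatory light chain, was counted at 1343, 1590 and 1496 and 1140, 1117 and 1188 in the sORF7 experiment and at 589, 601 and 600.1 and 810.1, 834 and 806 in the sORF8 experiment, controls first. It fell with sORF7 and rose with sORF8, and its difference was -0.82 ± 0.09 (adjusted p 8.03e-06). Mybpc3, the cardiac myosin binding protein C, had responses of -0.24 and 0.15.

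Of 15 thin filament genes, 9 were called lower in the difference and 0 higher, with a median of -0.30. Tmod1, which caps the pointed end of actin filaments, had responses of -0.16 and 0.33, and Tpm1, the main cardiac tropomyosin, -0.16 and 0.14; both were opposite movers. Tnni1, the slow troponin I of the fetal heart, rose with sORF8 (0.27 ± 0.06) and had an uncalled sORF7 response of -0.16 ± 0.06. Actc1 and Acta1, the cardiac and skeletal alpha actins, were called lower at -0.35 and -0.38; they are close paralogs, so their separate values are uncertain. Of 19 tested Z-disc genes, 11 were called lower and 0 higher, with a median of -0.295. Actn2, the sarcomeric alpha-actinin, was counted at 3192, 3215 and 3034 normalised CPM in the sORF7 controls and 2703, 2730 and 2675 with sORF7, and at 1757, 1788 and 1780 in the sORF8 controls and 2133, 2160 and 2097 with sORF8. It fell and rose without overlap, a difference of -0.48 ± 0.04 (adjusted p 6.18e-07). Ankrd1 and Ldb3, a stress-responsive ankyrin repeat protein and a Z-disc PDZ protein, were called at -0.57 and -0.47, and Csrp3 and Synpo2l were the other opposite movers of the list.

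Of 18 titin, M-band and costamere genes, 8 were called lower in the difference and 0 higher, with a median of -0.23. Myom1, which crosslinks thick filaments at the M-band (gene 316740, chr9:119348384-119469252, plus strand), was counted at 780.2, 787 and 744 normalised CPM in the sORF7 controls and 611, 636 and 617 with sORF7, and at 440.0, 429 and 419 in the sORF8 controls and 562, 559 and 526 with sORF8. All 3 sORF7 libraries lay below their controls and all 3 sORF8 libraries above theirs, with a difference of -0.67 ± 0.05 (adjusted p 2.04e-07). Its relative Myom2 had a difference of -0.89 ± 0.09. Titin itself, Ttn, had responses of -0.23 and 0.29 and its difference of -0.52 was not called (adjusted p 0.0959).

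In the hypertrophy and fetal cardiac list, 10 of 16 members were called lower in the difference and 1 higher, against 3.92% and 3.8% over all genes. The median was -0.36. The list shares genes with the sarcomere lists, Myh7 and Ankrd1 among them, so it is no independent measure. Nppa, which encodes atrial natriuretic peptide (gene 24602, chr5:164808407-164809716, plus strand), was counted at 3529, 4015 and 4033 normalised CPM in the sORF7 controls and 3026, 2934 and 3201 with sORF7, and at 3783, 3734 and 3671 in the sORF8 controls and 4755, 4782 and 4923 with sORF8. Its controls stood 0.05 log2 units apart (adjusted p 0.522). The 3 sORF7 libraries were the lowest of the 12 and the 3 sORF8 libraries the highest, and the difference was -0.71 ± 0.08 (adjusted p 1.06e-05). Nppb, which encodes the B-type peptide, had responses of -0.28 ± 0.06 and 0.33 ± 0.06. Atp2a2, the calcium pump of the sarcoplasmic reticulum, rose with sORF8 (0.25) with an uncalled sORF7 response of -0.09 and a difference of -0.34. Gdf15, a stress-induced cytokine, was the member called higher (0.56).

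Markers of other cell types were counted in the same way. Of 15 fibroblast markers, 4 fell with sORF7 (26.7%, against 3.66% of all genes) and 0 rose: Postn, Pdgfra, Col3a1 and Gas1, with responses of -0.16, -0.30, -0.21 and -0.43. In the difference, 2 of the 15 (13.3%, against 3.92%) were called lower, Pdgfra and Gas1, and 0 higher, and the count of 2 fell to 1 in 10 of the 12 fits that left out a library (not without sORF7 library 1 or sORF7 control library 3). With sORF7 Notch3, a smooth muscle and pericyte marker, and Lyz2 and Csf1r of 12 macrophage and leukocyte markers also fell, and with sORF8 Acta2, a smooth muscle marker, rose. The part of such cells in the results above was not tested. In the difference, of 10 endothelial, 9 smooth muscle and pericyte, 12 macrophage and leukocyte and 8 epicardial and Schwann cell markers tested, 0 were called by edgeR, DESeq2 or limma. At an unadjusted p under 0.05 by edgeR, 1 smooth muscle, 2 macrophage and 1 epicardial or Schwann cell marker had a negative difference. Summed levels over the 12 libraries ran from 1953 to 2158 FPKM for fibroblast markers, 120.4 to 130.2 for endothelial, 1636 to 2291 for smooth muscle, 74.9 to 104.6 for macrophage and 13.0 to 18.3 for epicardial and Schwann markers. Smooth muscle markers were lower in the sORF8 experiment (1636 to 1857) than in the sORF7 experiment (1983 to 2291). Cdh5, Cldn5, Emcn, Tie1 and Vwf of the endothelial list and C1qa, C1qb and C1qc of the macrophage list were under 1 FPKM in every library, while the 10 cardiomyocyte markers were at 34.4 FPKM or more.

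Outside the 3 families, 95 of the 130 opposite movers belonged to none of those lists. Beside them stood the control difference: over the 54 that rose with sORF7 the median responses were 0.275 and -0.276 and the median control difference was -0.69, and over the 76 that fell with sORF7 these were -0.24, 0.25 and 0.46. Because the control libraries enter all of these values, they are a description. Bpifb4, of the BPI fold family of lipid-binding secreted proteins (gene 499925, chr3:149424392-149449350, plus strand), had the largest difference and was the only opposite mover past 2-fold in both responses. It was counted at 0.406, 0.525 and 0.516 normalised CPM in the sORF7 controls and 2.30, 1.53 and 1.76 with sORF7, and at 10.1, 11.0 and 11.6 in the sORF8 controls and 2.38, 2.86 and 3.25 with sORF8. The sORF8 controls stood above both sORF groups and the sORF7 controls below them. At 0.406 to 0.525 normalised CPM the sORF7 controls were near the floor, so the sORF7 response rests on few reads. The difference was 3.87 ± 0.28 (adjusted p 2.04e-07). Bpifb1, a member of the same family near it on chromosome 3, had responses of 0.81 and -1.09. Nell2, a secreted EGF-like protein (gene 81734, chr7:136526497-136853820, minus strand), was counted at 7.60, 6.29 and 6.82 in the sORF7 controls and 13.3, 13.5 and 13.4 with sORF7, and at 45.2, 46.4 and 45.1 in the sORF8 controls and 16.8, 19.1 and 17.6 with sORF8. Both sORF groups again lay between the controls, with a difference of 2.31 ± 0.18. Rasd1, a dexamethasone-induced Ras protein, Anxa3, an annexin, and Nabp1, a single-stranded DNA binding protein, had differences of 1.26, 1.02 and 0.88.

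Of the genes that fell with sORF7 and rose with sORF8, Nsg2, a gene best known from neurons, had the largest difference, at -1.33 ± 0.18 (adjusted p 0.000104). It was counted at 11.5, 12.8 and 12.2 normalised CPM in the sORF7 controls and 7.12, 7.08 and 7.36 with sORF7, and at 3.55, 4.59 and 3.64 and 6.39, 6.03 and 5.16 in the sORF8 experiment. Tnni3k, a kinase found in cardiomyocytes that binds cardiac troponin I, went from 86.6 ± 4.09 to 72.5 ± 2.09 with sORF7 and from 36.1 ± 0.789 to 52.2 ± 1.17 with sORF8 (mean ± SD, n = 3 each). Pla2g5, a secreted phospholipase A2, had responses of -0.36 and 0.41. Apart from Nsg2, the members of this direction outside the lipid, antioxidant and sarcomere lists had sORF7 responses from -0.40 (Sorbs2) to -0.12 (Srl, Sgcb and Tgfb2) and include Casq1 and Casq2, the calsequestrins, and Tbx20, a cardiac transcription factor, with differences of -0.50, -0.42 and -0.60; these genes were named after their values were seen.

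Interferon-stimulated genes, the antiviral programme, showed a one-sided difference. Of 44 members, 21 were called higher in the difference and 0 lower, with a median of 0.72. The 21 became 13 without sORF8 control library 2. With sORF7 43 rose and 0 fell (median 0.91), and with sORF8 0 rose and 0 fell at the same threshold (median 0.16), where edgeR at an unadjusted p under 0.05 gave 5 and 2, and DESeq2 and limma gave 0 and 0. The sORF7 controls were already above the sORF8 controls in 43 of the 44, with a median of 1.82. Cxcl10, an interferon-induced chemokine (gene 245920, chr14:17210733-17212930, plus strand), was counted at 28.5, 29.9 and 25.7 normalised CPM in the sORF7 controls and 107, 87.0 and 88.9 with sORF7, and at 8.09, 8.87 and 5.83 in the sORF8 controls and 7.67, 8.03 and 4.60 with sORF8. The sORF7 libraries were the highest of the 4 groups, while the 2 groups of the sORF8 experiment overlapped, and the difference was 1.92 ± 0.23 (adjusted p 2.64e-05). Isg15, a ubiquitin-like protein, and Oasl, of the oligoadenylate synthetase family, had differences of 1.88 ± 0.28 and 1.92 ± 0.23; Oasl has a paralog that could share its reads. No interferon-stimulated gene was an opposite mover.

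Genes of inflammation were among the largest same-direction rises. The NF-kB and cytokine list had 3 same-direction movers (Nos2, Il1b and Cxcl1) and 1 opposite mover, Vcam1. With sORF7 16 of its 27 members rose and 1 fell, and with sORF8 6 rose and 0 fell. The difference was called higher for 3 (Cx3cl1, Nfkbiz and Tnf) and lower for 2 (Nfkb1 and Vcam1), 18.5% against 7.72% over all genes. Nos2, the inducible nitric oxide synthase (gene 24599, chr10:66188290-66221621, plus strand), was counted at 8.29, 15.6 and 11.3 normalised CPM in the sORF7 controls and 23.4, 23.9 and 23.6 with sORF7, and at 10.1, 5.46 and 7.40 in the sORF8 controls and 16.0, 16.3 and 13.2 with sORF8. Every sORF library was above its own controls, which the rule for naming such genes required. The responses were 1.01 ± 0.22 (adjusted p 0.00772) and 0.99 ± 0.24 (adjusted p 0.0247). The controls of Nos2 spread widely, and its sORF8 call was lost without sORF8 library 1 or 2 or sORF8 control library 2 or 3 (adjusted p 0.0874 to 0.122). Ccl3, a macrophage inflammatory chemokine, went from 8.18, 11.7 and 9.28 to 19.6, 17.1 and 15.2 with sORF7 and from 8.59, 9.18 and 7.09 to 13.0, 18.3 and 13.8 with sORF8. Its 2 responses, 0.83 ± 0.16 and 0.86 ± 0.16, gave a difference of -0.03 ± 0.22 (adjusted p 0.967). Cxcl3, a neutrophil chemokine, had responses of 0.81 and 0.83, Il1b, interleukin 1 beta, 0.75 and 0.89, and Mmp12, the macrophage elastase, 1.13 and 0.78. The sORF7 call of Il1b was lost without sORF7 library 2 or sORF7 control library 3 (adjusted p 0.062 to 0.0748), and the sORF8 call of Mmp12 was lost in 10 of 12 fits that left out a library (adjusted p 0.0541 to 0.178).

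The other 3 named genes that rose in both responses were Wfdc1, Hr and Abcb9. Wfdc1, a secreted whey acidic protein domain protein, was counted at 50.1, 63.2 and 64.9 normalised CPM in the sORF7 controls and 89.8, 83.2 and 82.4 with sORF7, and at 29.6, 29.1 and 28.3 in the sORF8 controls and 40.2, 46.1 and 42.6 with sORF8. The rise was of similar size from different control levels, 0.52 ± 0.08 and 0.57 ± 0.09, with a control difference of 1.03. Hr, a histone demethylase and corepressor, had responses of 0.46 and 0.77. Abcb9, a lysosomal peptide transporter, had responses of 0.48 and 0.85, and its sORF7 call was lost without sORF7 library 1 or sORF7 control library 1 or 3 (adjusted p 0.065 to 0.119). Art3 was the only same-direction mover called in the difference (-0.25 ± 0.07, adjusted p 0.0438), since it rose more with sORF8 (0.42) than with sORF7 (0.17). The other risers were an unnamed locus, Cxcl1, Lims2, Plppr5, Cish, Abcc4, Ctsd, Clu, Mocs2, Foxo4 and Acsf2. The unnamed locus, LOC497963 (chr10:66188030-66313373, plus strand), had responses of 0.875 and 0.647. Its span contains that of Nos2 on the same strand. Reads may be shared between them, so their separate values are uncertain.

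Genes that fell in both responses numbered 9. Ptgr1, a prostaglandin reductase, was counted at 47.0, 49.2 and 47.5 normalised CPM in the sORF7 controls and 38.0, 38.4 and 39.5 with sORF7, and at 63.9, 72.6 and 68.9 in the sORF8 controls and 57.1, 53.8 and 57.8 with sORF8. Cav1, the caveolar coat protein caveolin 1, went from 139.9, 143 and 141 to 120.2, 123 and 122 with sORF7 and from 172, 166 and 165 to 139, 149 and 151 with sORF8. In both genes every sORF library lay below its controls, again as the naming rule required, and the differences were -0.03 ± 0.08 and -0.02 ± 0.05. Efemp1, a fibulin of the matrix, fell by 0.52 with sORF7 and by 0.25 with sORF8 on the log2 scale, and Perp, a desmosomal p53 target, by 0.15 and 0.29. Id4, Emp1, Rras2 and Eef1a1 had sORF7 responses of -0.28, -0.24, -0.16 and -0.11 and sORF8 responses of -0.26, -0.15, -0.18 and -0.12; Eef1a1, the translation elongation factor, has many processed pseudogenes that could share its reads. The last of the 9 was Fam169a. The sORF8 calls of Efemp1, Emp1, Id4, Rras2 and Eef1a1 and the sORF7 calls of Perp, Id4, Rras2 and Eef1a1 were lost in 4 to 10 of the 12 fits that left out a library (adjusted p 0.0506 to 0.196). A difference near 0 does not show that the sORFs act alike on these genes. The count of 29 was 11 to 24 when a library was left out, with 16 and 17 without sORF7 library 1 or 2, 18 and 19 without sORF7 control library 1 or 3, 14 and 11 without sORF8 library 1 or 2, and 14 and 12 without sORF8 control library 2 or 3.

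**Figure D4:**
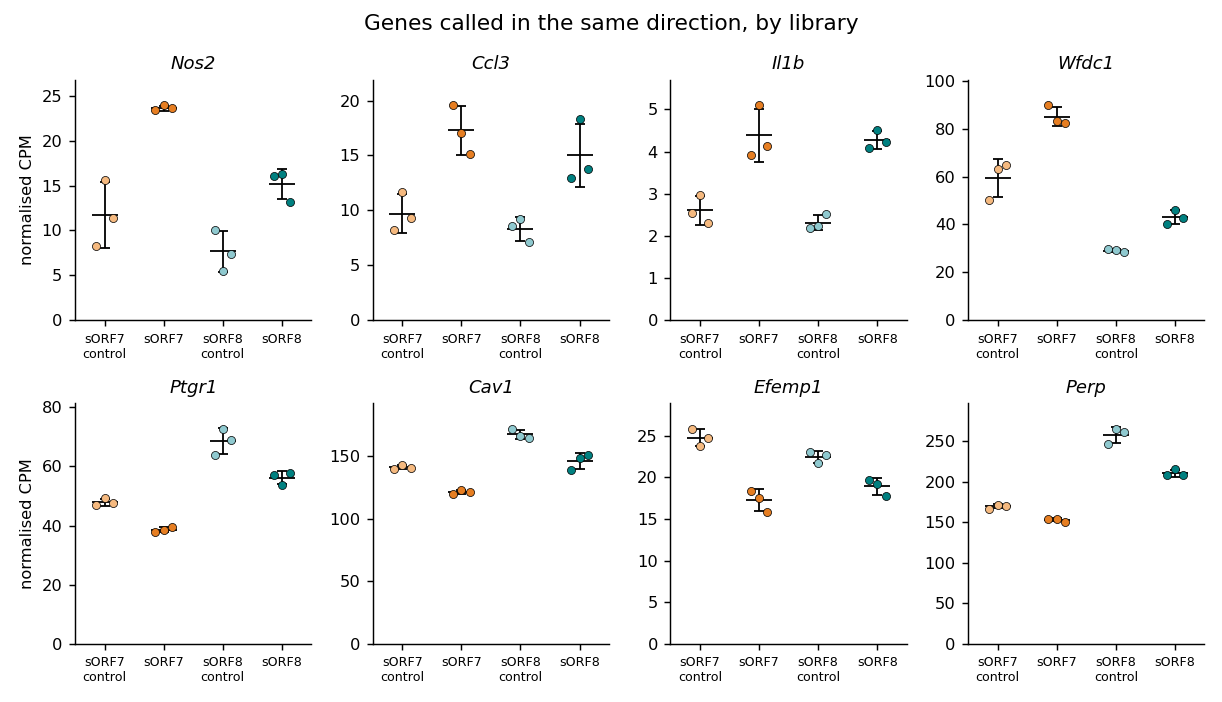
Normalised CPM in each of the 12 libraries for 4 genes called higher (top) and 4 called lower (bottom) in both responses, with the mean and SD of 3 libraries as black bars. The Nos2 controls range from 8.29 to 15.6 and from 5.46 to 10.1, below the sORF7 and sORF8 libraries of the same experiment.

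The distance between experiments differed by gene group. It was taken as the absolute log2 ratio of the group mean CPM plus 0.1, between the 2 control groups and between the sORF7 and sORF8 groups. Before the sign is dropped, the distance with the sORF viruses is, up to the added 0.1 and the fit, the control difference plus the difference of responses. The distances thus restate values given above and are no separate support. For sterol synthesis the median distance was 0.48 with the control viruses and 0.08 with the sORF viruses, and it was smaller with the sORF viruses in 20 of 20 genes. For fatty acid synthesis and desaturation it was 0.44 and 0.155, smaller in 15 of 17. For all sarcomere genes it was 0.37 and 0.28, smaller in 42 of 64 (65.6%). The antioxidant lists had 0.26 and 0.21, smaller in 42 of 74 (56.8%), a share like that of all genes. For all 14870 genes it was 0.20 and 0.17, smaller in 8463 (56.9%). Interferon-stimulated genes went the other way, from 1.81 to 2.495, with 1 of 44 smaller. The distance was also larger with the sORF viruses for sterol uptake, efflux and regulation (0.096 to 0.20, smaller in 6 of 18), superoxide and peroxide removal (0.178 to 0.275, 4 of 14), thioredoxin and peroxiredoxin (0.226 to 0.252, 7 of 14) and NF-kB and cytokine genes (0.191 to 0.286, 11 of 27). The 130 opposite movers, whose choice used the same libraries, had medians of 0.60 and 0.21.

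**Figure D5:**
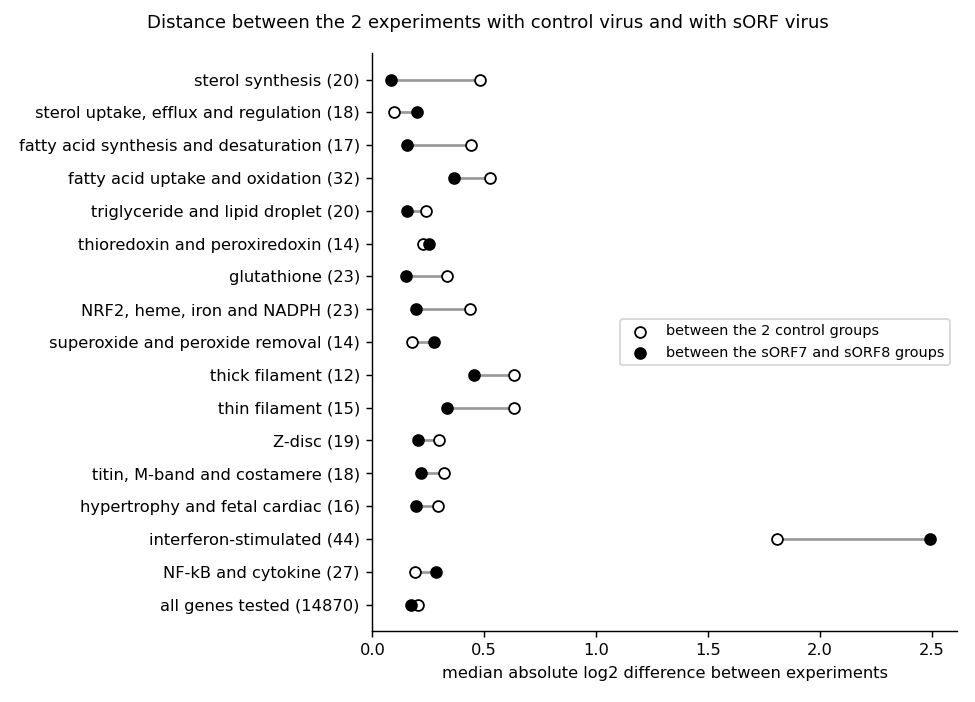
Median absolute log2 difference in group mean CPM plus 0.1 between the experiments, for the 2 control groups (open circles) and for the sORF7 and sORF8 groups (filled circles), by gene list with the number tested in brackets. The sterol synthesis list goes from 0.48 to 0.08 and the interferon-stimulated list from 1.81 to 2.495.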

How the data were processed

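RNA sequencing of 18 libraries in 6 groups of 3 was used, grouped by the sample titles, and the comparison rests on 12 of them. The authors deposited 1 table of 19880 genes, all mRNA, with estimated counts and FPKM per library. Per the submitters' processing notes, the tools include HISAT2 2.0.4, RSEM 1.2.12 and DESeq2 1.4.5, on build Rnor_6.0, with no roles given. The authors' estimated counts were rounded, filtered by filterByExpr (14870 genes kept), scaled by TMM and fitted with edgeR 4.0.16 (R 4.3.3) as 6 group means over 18 libraries. The fit had 12 residual degrees of freedom, and its common coefficient of variation between libraries was 6.9%. The difference of responses, both responses and the control difference were two-sided quasi-likelihood contrasts, with p-values adjusted by the Benjamini-Hochberg method over all genes tested. The deposited FPKM served for marker sums and for limma 3.58.1 on log2(FPKM + 1). Depth per library was 15697177 to 17652197 counts in the 12 libraries. The test was checked on simulated counts.

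Alternatives were DESeq2 1.42.0, upper-quartile scaling, no filter, the 12 libraries alone, a replicate block, each library left out and a length correction. The members, the 22 gene lists and the tests were chosen with earlier results of these data known. Named genes were, per direction, up to 8 opposite movers called in the difference with the largest differences and up to 8 same-direction movers with the largest smaller response, leaving out unnamed loci. Both needed an average log2 CPM of 1 or more and sORF libraries clear of their controls. To these came the 3 members with the smallest p for the difference in each lipid, antioxidant, sarcomere, hypertrophy, interferon and NF-kB list, and a set always named (Nppa, Nppb, Myh7, Myh6, Acta1, Atp2a2, Hmgcs1, Srebf1, Hmox1, Srxn1 and Nqo1). A gene of this set is not reported here. Positions of genes are those of Rnor_6.0 in the table, whose strand matched RefSeq's for 88.0% of 14732 genes. No strand is given for Gstp1, Insig1 and Myh7, which lie on the other strand in RefSeq and span more bases in the table. Promoter windows are RefSeq sequence on GRCr8, matched by gene ID for 11467 of 14870 tested genes. Transcripts of the viruses were not analysed here, and no source used here says whether counting used strand.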

Additional observations from a re-analysis of the deposited data

Results flagged for a closer look

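Of the genes of the naming rule whose responses to sORF7 and sORF8 differed by the test of the difference itself, 59 are given here, each with its log2 difference, sORF7 response minus sORF8 response. Groups of 3 libraries were not screened for outlying libraries. Of the 59, 36 were negative and 23 positive.

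In lipid genes the differences were -0.93 for Hsd17b7, -0.76 for Fdps, -0.61 for Hmgcs1, -0.55 for Fdft1, -0.44 for Insig1 and -0.41 for Srebf2. They were -1.05 for Scd, -0.74 for Scd2, -0.65 for Fads1, -0.64 for G0s2 and -0.35 for Fabp3, and positive for Hadhb (0.17), Slc27a1 (0.45), Gpat3 (0.81) and Dgat2 (0.88). In antioxidant genes they were 1.16 for Srxn1, 0.92 for Gstp1, 0.85 for Hmox1, 0.77 for Sqstm1, 0.42 for Mafg, 0.40 for Txnrd1, 0.39 for Gclc, 0.37 for Sod1 and 0.30 for Sesn2, and negative for Gstm2 (-0.58), Selenop (-0.43) and Txnip (-0.39).

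In the sarcomere and hypertrophy genes of the naming rule all were negative: Myom2 (-0.89), Myl2 (-0.82), Myh7 (-0.80), Nppa (-0.71), Myom1 (-0.67), Nppb (-0.61), Myh6 (-0.60), Ankrd1 (-0.57), Tmod1 (-0.49), Actn2 (-0.48), Ldb3 (-0.47), Tnni1 (-0.43), Mybpc3 (-0.39), Acta1 (-0.38), Atp2a2 (-0.34), Fhl1 (-0.30) and Tpm1 (-0.30). Gdf15 of the hypertrophy list, called higher in the difference, is outside that rule. In interferon and NF-kB genes they were 1.88 for Isg15, 1.92 for Cxcl10, 1.92 for Oasl, 0.49 for Nfkbiz, -0.29 for Nfkb1 and -0.48 for Vcam1. The other opposite movers were Bpifb4 (3.87), Nell2 (2.31), Bpifb1 (1.91), Rasd1 (1.26), Anxa3 (1.02), Nabp1 (0.88), Nsg2 (-1.33), Tnni3k (-0.79) and Pla2g5 (-0.77).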

How the results depend on the processing

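The count of genes called in the difference, 1148, was 1007 to 1506 under the other tools and settings and 787 to 1104 with a library left out. The length correction, which removes a trend on transcript length and was chosen after seeing the data, moved the sORF8 calls from 558 to 920, the opposite movers from 130 to 216 (124 of the 130 among them) and the same-direction movers from 29 to 54 (28 of the 29). With a library left out, the sORF7 calls were 681 to 1106, the sORF8 calls 264 to 667, the opposite movers 86 to 127, the same-direction movers 11 to 24 and the control difference calls 4911 to 5593. The lowest values came without sORF7 library 1 for the sORF7 calls, without sORF8 library 2 for the sORF8 calls and both kinds of mover, and without sORF8 control library 2 for the control difference. Called lipid, antioxidant and sarcomere genes (39, 22 and 37) were 34 to 43, 17 to 26 and 32 to 40 under the settings of count tests, and 39, 31 and 30 with limma. With limma thin filament calls went from 9 to 5, superoxide and peroxide removal calls from 3 to 5 and triglyceride and lipid droplet calls from 3 to 5, and fibroblast marker calls from 2 to 1. Calls in fatty acid uptake and oxidation went from 5 to 3 with DESeq2, limma and the replicate block. In the NRF2 list, 7 calls became 11 with DESeq2 (10 higher, 1 lower) and 13 with limma (12 and 1). Limma split the sORF7 calls 740 higher to 324 lower, where edgeR gave 612 to 544. No paired design is given by the labels, and libraries of the same number did not vary together within an experiment (correlations of -0.033 to 0.121), nor did every library correlate best with its own number. The fit with a replicate block gave 1062 calls in the difference, 1022 for sORF7, 459 for sORF8, 117 opposite and 26 same-direction movers, and 38, 24 and 36 in the 3 families. The block takes up the control difference, so no blocked value exists for it. No sign changed in any of 94 gene results, and 77 of 92 calls were kept under every setting that gave an adjusted p.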

Other observations

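Some opposite movers outside the gene lists were named here after their values were seen. Among those that rose with sORF7 and fell with sORF8, the responses were 0.14 and -0.23 for Hsp90aa1, the inducible cytosolic HSP90, 0.31 and -0.31 for Hspa4l, an HSP70 relative, 0.13 and -0.21 for the small heat shock protein Hspb8, and 0.29 and -0.37 for the mitochondrial protease Lonp1. Myc, the growth transcription factor, had 0.28 and -0.25, and Plaur, the urokinase receptor, 0.40 and -0.40. Their control differences were -0.61, -0.66, -0.61, -0.65, -0.80 and -0.84 in the same order, sORF7 control minus sORF8 control.

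Among those that fell with sORF7 and rose with sORF8, the responses were -0.12 and 0.36 for Srl, sarcalumenin, -0.25 and 0.43 for the T-type calcium channel Cacna1g, and -0.18 and 0.35 for Sspn, sarcospan. Their control differences were 0.92, 0.94 and 0.83. The genes were chosen for these directions, which are a description.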
